A study of Rattus norvegicus with 2 samples.

Results

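The 9 genes described here encode the rat enzymes that attach an isoprenoid lipid to a cysteine near the end of a protein and then trim and methylate that end. They were taken by symbol from a deposited table of 16846 gene symbols, and all 9 (Fnta, Fntb, Pggt1b, Rabggta, Rabggtb, Chm, Icmt, Rce1 and Zmpste24) were found. They were listed for their function, with Fntb, a cited target of the microRNAs miR-99 and miR-100, to be read against its partner and paralog subunits. Poly(A) RNA was sequenced with strand information from cultured ventricular cells of newborn rats (postnatal day 0). The anti-miR culture received an adeno-associated virus (AAV2/9) carrying short hairpins against miR-99/100 and let-7 for 7 days. The control is an empty AAV by its treatment label and mock-transduced by the protocol, and apart from the virus both cultures are described alike. Each group is 1 library, so no value has a replicate check, no p-value is given, and every comparison below is between 2 libraries. No strain or sex is given in the sources used here.

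In prenylation, farnesyltransferase joins a farnesyl group, and geranylgeranyl transferase I a longer geranylgeranyl group, to proteins that end in a CAAX box (a cysteine, usually followed by a pair of aliphatic residues and a last residue that helps to set which lipid is used). The enzymes share their alpha subunit, encoded by Fnta, and differ in the beta subunit, Fntb for farnesyltransferase and Pggt1b for geranylgeranyl transferase I. A further enzyme, made of Rabggta and Rabggtb, geranylgeranylates Rab GTPases, which are presented to it by the escort protein encoded by Chm. After CAAX prenylation the protease Rce1 removes the last residues and the methyltransferase Icmt caps the cysteine, while Zmpste24 is best known for cutting prelamin A to lamin A. The lipid brings many small GTPases and lamins to membranes, and isoprenoids come from the mevalonate pathway.

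Mature forms of the inhibited families are shown because their seeds help to define which transcripts they bind. The labels name miR-99/100 as a family, and let-7a/c in the treatment protocol. Bases 2 to 8, the seed, are in capitals, 5′ to 3′, from RefSeq on build GRCr8.
rno-miR-99b-5p: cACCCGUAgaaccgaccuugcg
rno-miR-100-5p: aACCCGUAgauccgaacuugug
rno-let-7a-5p: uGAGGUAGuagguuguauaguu
rno-let-7c-5p: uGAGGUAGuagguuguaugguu
The miR-99b and miR-100 forms have the same seed and differ at 4 of 22 positions, all outside it. The let-7a and let-7c forms differ at 1 of 22, and all 8 let-7 forms in the RefSeq table (a to g, and i) carry one seed. A transcript that pairs with bases 2 to 8 of the miR-99/100 form holds the letters UACGGGU, and one that pairs with the let-7 seed holds CUACCUC. No transcript sequence was used here, so sites in Fntb were not looked at. The poly(A) libraries do not measure mature microRNAs, and the strength of the knockdown was not analysed here.

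The anti-miR library held 14815846 reads on genes and the control 16031780. Levels are given as RPM, the reads of a gene in every 1000000 that fell on genes, and levels of different genes are compared as RPKM, the same value per 1000 bases of transcript. Ratios are anti-miR over control. Their 95% intervals (exact Clopper-Pearson) cover counting error only, and such reads, which carry no molecular identifier, are not independent molecules. A gene was called higher or lower from a ratio of at least 1.5 in either direction. Of 10365 genes that averaged 1 RPM or more, 11.0% were called higher and 8.67% lower. Of the 6142 genes with a mean of 10 to 100 RPM, where all 9 enzyme genes lay, 7.0% were higher and 4.44% lower. Counting error alone does not describe the distance between these libraries: an exact binomial test on the reads, Benjamini-Hochberg adjusted, separated 58.1% of the 10365 genes.

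The cultures also hold cells other than cardiomyocytes. The 8 fibroblast markers summed to 103388 RPM in the anti-miR library and 101970 RPM in the control, and 8 macrophage markers to 6851 and 6148 RPM. Of the macrophage sum, Lyz2 alone had 3937 RPM in the anti-miR library and 2937 RPM in the control. Cd14, Csf1r and, only slightly, Ptprc were also higher in the anti-miR library, while C1qa, C1qb, Cd68 and Emr1 were lower. The median log2 ratio of the macrophage list was −0.05. The 3 measured smooth muscle markers summed to 975 RPM in the anti-miR library and 967 RPM in the control, and 5 endothelial markers to 56.2 and 31.1 RPM. Of the endothelial sum, Flt1 alone had 44.9 RPM in the anti-miR library and 24.7 RPM in the control, and Tek 7.69 and 3.49 RPM. The others were few and mixed: in that order of libraries, Pecam1 had 50 and 0 reads, Cdh5 1 and 0, and Vwf 3 and 47. The 10 measured cardiomyocyte markers summed to only 277 RPM in the anti-miR library and 239 RPM in the control, although the labels' protocol states a purity above 90%. Most of the sum came from Tnnt2, with 161 RPM in the anti-miR library and 147 RPM in the control, and Actc1, with 88.8 and 77.0 RPM in that order. Myh7 had 11.5 RPM in the anti-miR library and 6.18 RPM in the control, and Nppa 9.38 and 5.68 RPM. The other markers had few reads: Myh6, Tnni3, Ryr2 and Myl3 had 0 in the control, with 23, 5, 20 and 19 reads in the anti-miR library. Myl2 went the other way, with 5 reads in the anti-miR library and 30 in the control, and Mybpc3 had 14 and 15 in that order. All marker levels are whole-culture values, and so are those of the enzyme genes: fewer cells of a type and less RNA per cell cannot be told apart. Their part in the results below was not tested.

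The enzyme genes differed little as a group, but subunits of the same enzyme had different ratios. Fntb was the lowest of the 9, at 0.669 of its control level, while Pggt1b and Rabggta were 1.48-fold and 1.54-fold higher. The shared subunit Fnta was nearer to the control, at 0.879, and Rabggtb, the partner of Rabggta, was level at 1.04. By the 1.5-fold rule 1 of 9 was higher (Rabggta), 0 were lower and 8 lay between, beside the background of 11.0% and 8.67%. Their median log2 ratio was −0.08, against 0.03 over all 10365 genes, and the summed level was 320 RPM in the anti-miR library and 334 RPM in the control.

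**Figure D1:**
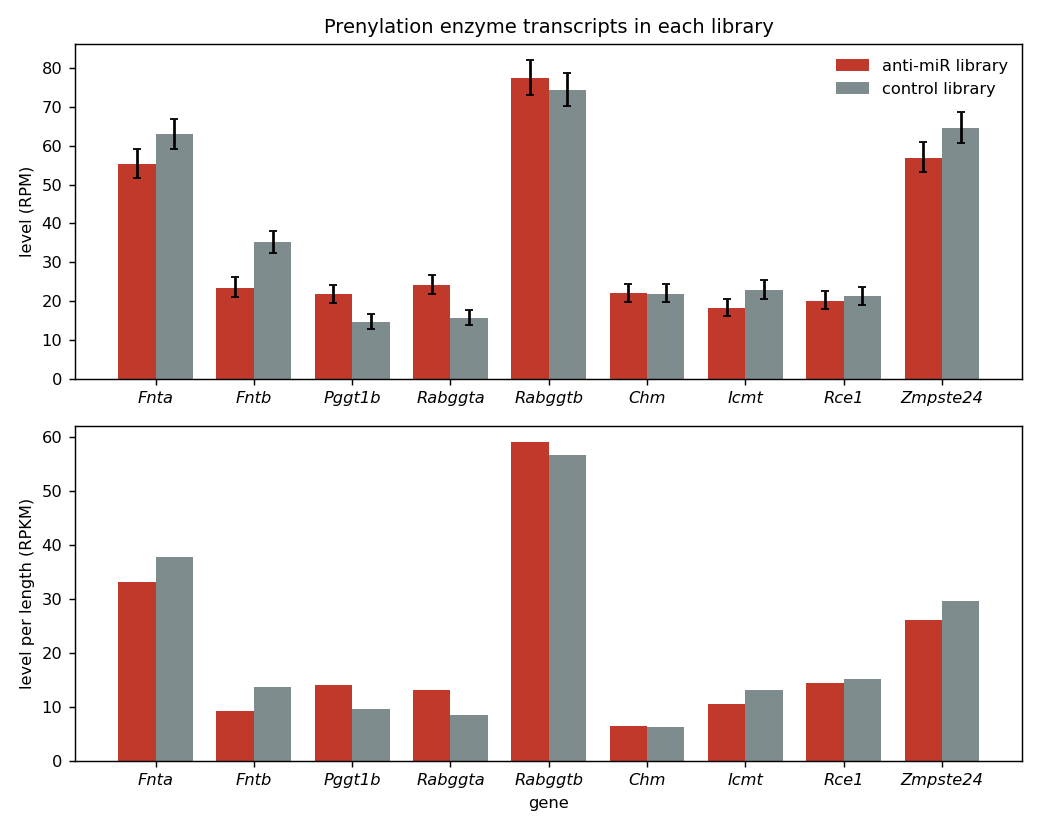
Level of each enzyme transcript in the anti-miR library (red) and the control (grey), in RPM with exact Poisson 95% counting intervals (top) and in RPKM (bottom). Fntb stands at 23.5 RPM in the anti-miR library and 35.1 RPM in the control, and Pggt1b and Rabggta have the taller bar in the anti-miR library.

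The farnesyltransferase subunits come first. Fntb (chromosome 6, 99427967 to 99511373, plus strand, build rn4 as for all positions below), the beta subunit, which binds the catalytic zinc, had 348 reads or 23.5 RPM in the anti-miR library and 563 reads or 35.1 RPM in the control. The ratio was 0.669 with a counting interval of 0.583 to 0.766, and the log2 ratio (with 0.1 RPM added to each level) was −0.58. Fntb was thus the member with the largest difference downward, just short of the 1.5-fold rule, and it passed that rule under each of 3 other scalings of the libraries (log2 ratios down to −0.61). Among the 6142 genes with a mean of 10 to 100 RPM, 4.58% had a lower log2 ratio than Fntb, and the central 95% of them ran from −0.70 to 0.85. Fntb therefore lay inside the spread of genes of like level.

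Fnta (chromosome 16, 70440340 to 70458433, plus strand), the alpha subunit of both CAAX enzymes, had 820 reads or 55.3 RPM in the anti-miR library and 1010 reads or 63.0 RPM in the control. Its ratio was 0.879 (0.800 to 0.964). Fnta was lower by less than Fntb, and the balance of the pair differed: Fntb had 0.424 reads per Fnta read in the anti-miR library and 0.557 in the control. The ratio of these ratios, which does not depend on how libraries are scaled, was 0.761 with an exact conditional counting interval of 0.645 to 0.898.

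Pggt1b (chromosome 18, 40410055 to 40452878, minus strand), the beta subunit of geranylgeranyl transferase I and the paralog of Fntb, went the other way. It had 322 reads or 21.7 RPM in the anti-miR library and 236 reads or 14.7 RPM in the control. The ratio was 1.48 (1.24 to 1.75), or 0.56 on the log2 scale. Like Fntb it was just short of 1.5-fold, and 92.2% of genes with a mean of 10 to 100 RPM had a lower ratio. Per Fnta read, Pggt1b had 0.393 reads in the anti-miR library and 0.234 in the control, a ratio of 1.68 (1.38 to 2.05). The nearest measured gene, Ccdc112, lies 2635 bases away on the same strand and was also higher, at 13.4 RPM in the anti-miR library and 7.11 RPM in the control. Trim36, on the other side, was not, with 1.55 RPM in the anti-miR library and 2.31 RPM in the control. Whether reads of that neighbour touch the Pggt1b value was not tested.

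Set against each other, the beta subunits differed in balance, and per length they stood in opposite order in the libraries. Fntb had 1.08 reads per Pggt1b read in the anti-miR library and 2.39 in the control, and the ratio of the ratios was 0.453 (0.363 to 0.565). Per length, Fntb stood at 9.13 RPKM and Pggt1b at 14.04 RPKM in the anti-miR library. In the control Fntb stood at 13.7 RPKM and Pggt1b at 9.51 RPKM. Fntb thus made up 39.4% of the summed Fntb and Pggt1b level per length in the anti-miR library and 58.9% in the control. The summed beta subunits differed less in proportion to Fnta than either alone: 0.817 reads per Fnta read in the anti-miR library and 0.791 in the control, a ratio of 1.03 (0.898 to 1.19). Summed per length instead, which gives the shorter Pggt1b transcript more weight, they had 0.70 of the Fnta level in the anti-miR library and 0.614 in the control. These are transcript levels, and protein or enzyme amounts were not measured.

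**Figure D2:**
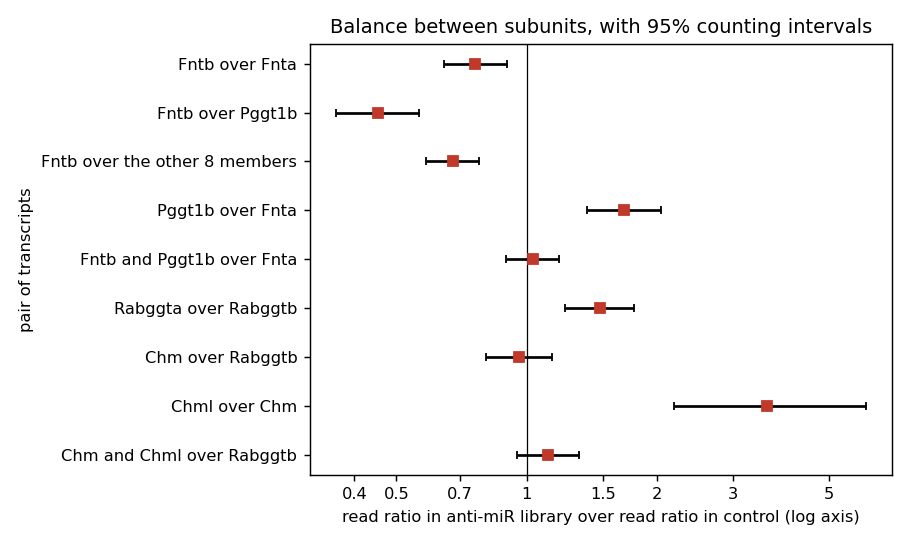
Balance of subunit transcripts, as the read ratio of each pair in the anti-miR library over that in the control (squares, log axis) with exact conditional 95% counting intervals. Fntb over Pggt1b lies at 0.453 and Pggt1b over Fnta at 1.68, while the summed reads of both beta subunits over Fnta and Chm over Rabggtb have intervals that include 1.

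The Rab branch held another difference within a heterodimer. Rabggta (chromosome 15, 33862275 to 33868619, minus strand), the alpha subunit of Rab geranylgeranyl transferase, had 358 reads or 24.2 RPM in the anti-miR library and 252 reads or 15.7 RPM in the control. It was the 1 enzyme gene past the rule, at 1.54-fold (1.30 to 1.81) or 0.62 on the log2 scale, and 93.6% of genes with a mean of 10 to 100 RPM had a lower one. Rabggtb (chromosome 2, 251852545 to 251857812, minus strand), the beta subunit, had 1148 reads or 77.5 RPM in the anti-miR library and 1192 reads or 74.4 RPM in the control. Its ratio of 1.04 (0.960 to 1.13) has an interval that includes 1. Rabggta therefore had 0.312 reads per Rabggtb read in the anti-miR library and 0.211 in the control, a ratio of 1.48 (1.23 to 1.77).

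Rabggtb was the most abundant of the 9 per length, at 59.1 RPKM in the anti-miR library and 56.7 RPKM in the control. Its partner Rabggta stood at 13.0 RPKM in the anti-miR library and 8.48 RPKM in the control, well below it in both. Chm (chromosome X, 101753857 to 101927941, minus strand), the Rab escort protein whose loss causes choroideremia in humans, was the lowest per length, at 6.35 RPKM in the anti-miR library and 6.34 RPKM in the control. It had 326 reads in the anti-miR library and 352 in the control, a ratio of 1.0 (0.859 to 1.17). The interval includes 1, and a difference within it could not be shown at this depth. Chm per Rabggtb read gave a ratio of 0.962 (0.807 to 1.15).

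Chml, the paralog of Chm that encodes the other Rab escort protein, belongs to a list of genes that work with these enzymes. It had 80 reads or 5.40 RPM in the anti-miR library and 24 reads or 1.5 RPM in the control, a ratio of 3.61 (2.26 to 5.95). Genes this low scatter widely: of 2430 genes with a mean of 1 to 10 RPM, 9.47% were at least 3-fold higher and 6.87% at least 3-fold lower. Chm and Chml summed to 9.25 RPKM in the anti-miR library and 7.14 RPKM in the control. Per Rabggtb read the summed reads of the pair gave a ratio of 1.12 (0.95 to 1.32). Summed per length, the pair had 0.157 of the Rabggtb level in the anti-miR library and 0.126 in the control. Reads shared by these paralogs could be assigned to either. Ptar1, an alpha-type prenyltransferase subunit that pairs with Rabggtb in a further geranylgeranyl transferase, had 5.67 RPM in the anti-miR library and 5.68 RPM in the control.

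The enzymes that act after prenylation were level or slightly lower. Rce1 (chromosome 1, 207213714 to 207216814, minus strand), the protease of the endoplasmic reticulum that cuts off the AAX residues, had 298 reads or 20.1 RPM in the anti-miR library and 342 reads or 21.3 RPM in the control. Its ratio was 0.943 (0.804 to 1.1), an interval that includes 1. Icmt (chromosome 5, 169526961 to 169533722, plus strand), which methylates the exposed cysteine, had 270 reads or 18.2 RPM in the anti-miR library and 368 reads or 23.0 RPM in the control. Its ratio of 0.794 (0.676 to 0.931) was the lowest after that of Fntb.

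Zmpste24 (chromosome 5, 141644119 to 141677211, minus strand), the zinc protease of prelamin A, had 844 reads or 57.0 RPM in the anti-miR library and 1035 reads or 64.6 RPM in the control, a ratio of 0.882 (0.805 to 0.967). Its substrate transcript Lmna, of lamin A and C, had 504 RPM in the anti-miR library and 485 RPM in the control. Neither was near the 1.5-fold rule. The balance of Icmt to Rce1 gave a ratio of 0.842 (0.671 to 1.06) and that of Rce1 to Zmpste24 1.07 (0.889 to 1.28), both with intervals that include 1.

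**Figure D3:**
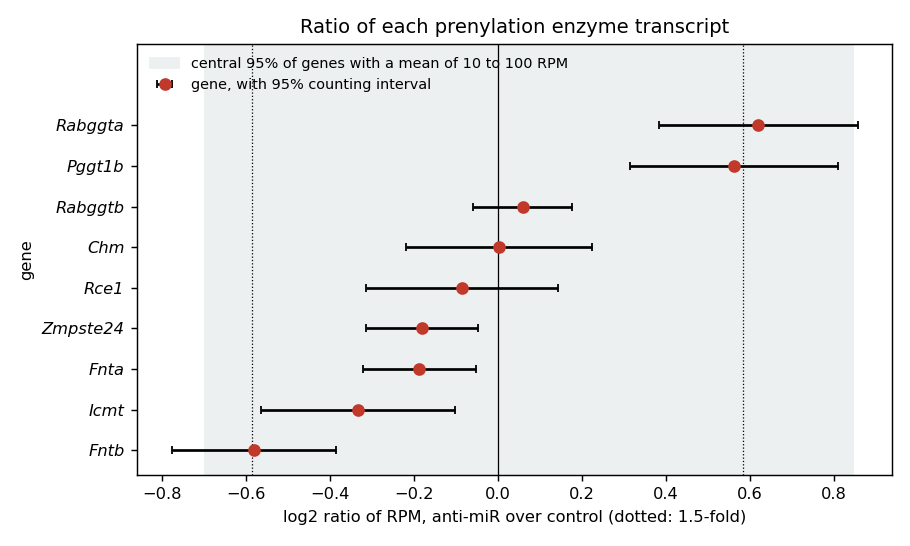
Log2 ratio of RPM, anti-miR over control, for each enzyme gene (points) with its 95% counting interval, over the central 95% of genes with a mean of 10 to 100 RPM (shaded, −0.70 to 0.85) and the 1.5-fold lines (dotted). Rabggta lies beyond the right-hand line, Pggt1b and Fntb lie just inside theirs, and all 9 points lie in the shaded range.

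The counting interval of the ratio excluded 1 for 6 of the 9 enzyme genes. It lay above 1 for 2 genes (Pggt1b and Rabggta), below 1 for 4 (Fntb, Icmt, Fnta and Zmpste24) and included 1 for 3 (Rabggtb, Chm and Rce1). The same 2 and 4 genes were separated by the exact binomial test on reads, beside the 31.7% of all genes it placed higher and the 26.4% it placed lower. Among all 36 pairs of the 9 genes, 23 had balance intervals that excluded 1. The share among pairs of other genes was not computed, so this count and those for Fntb below have no background. Because Fntb had the lowest ratio of the 9, each of its balances lay below 1. By intervals that excluded 1, Fntb was lower relative to 7 of the other 8. Its balance to Icmt, at 0.842 (0.682 to 1.04), was the exception, and against the other 8 summed it was 0.675 (0.585 to 0.777).

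**Figure D4:**
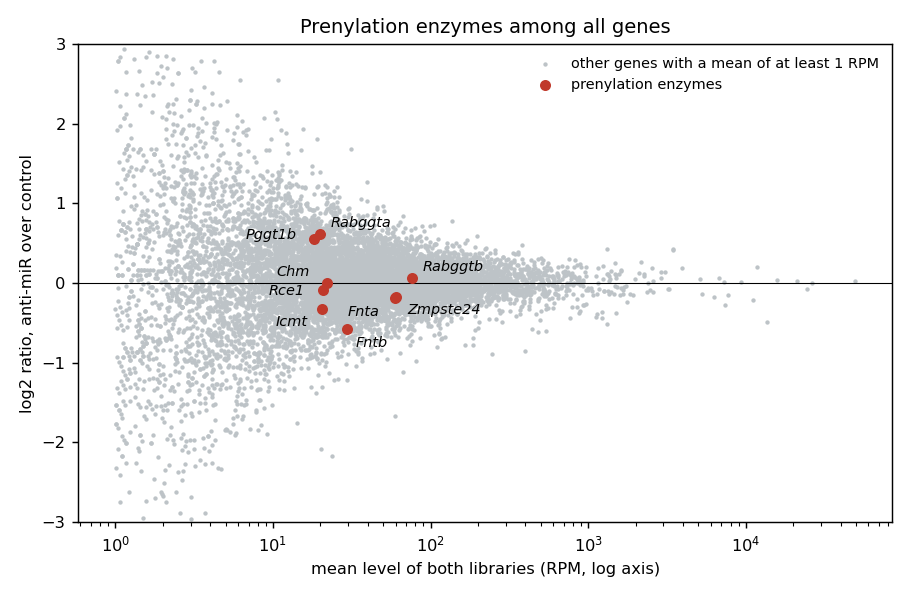
Log2 ratio (anti-miR over control) against the mean RPM of both libraries (log axis) for genes that averaged 1 RPM or more (grey) and the 9 enzyme genes (red). The enzyme genes lie within the cloud of genes of like level, and 110 genes beyond 3 on the vertical axis are not drawn.

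The order of levels per length was partly the same in both libraries. Rabggtb, Fnta, Zmpste24 and Rce1 held ranks 1 to 4, with Fnta at 33.1 RPKM in the anti-miR library and 37.7 RPKM in the control, and Zmpste24 at 26.1 and 29.6 RPKM in that order of libraries. Rce1 stood at 14.3 RPKM in the anti-miR library and 15.2 RPKM in the control. Below these, Pggt1b, Rabggta, Icmt and Fntb held ranks 5 to 8 in the anti-miR library, whereas in the control the order was Fntb, Icmt, Pggt1b and Rabggta. Chm was ranked 9 in both.

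Neighbouring genes were mixed. No other row of the table with reads overlapped any of the 9 genes, and the row inside Chm, the microRNA gene Mir361, had 0 reads. The measured genes on either side of Fntb were Rab15, with 27.1 RPM in the anti-miR library and 28.8 RPM in the control, and Max, with 7.29 and 10.5 RPM in that order. The log2 ratio of Max, −0.53, was close to that of Fntb, and that of Rab15 was −0.08. Both neighbours lie on the opposite strand. Beside Rabggta, Tinf2 had a log2 ratio of −0.29 and Dhrs1 of 0.19.

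Genes that supply the lipid were mostly level. Of 14 genes of isoprenoid synthesis and use listed, 12 were measured and above 1 RPM, with 2 called higher (16.7%), 1 lower (8.33%) and a median log2 ratio of 0.04. Over all genes 11.0% were called higher and 8.67% lower. Fdps, the synthase of farnesyl pyrophosphate, had 95.8 RPM in the anti-miR library and 69.7 RPM in the control, a ratio of 1.37 (1.27 to 1.49). Ggps1, which makes geranylgeranyl pyrophosphate, had 22.2 RPM in the anti-miR library and 22.8 RPM in the control. Mvd, a decarboxylase of the mevalonate pathway, was lower at 21.5 RPM in the anti-miR library against 33.9 RPM in the control. Pdss2, which makes the tail of coenzyme Q, was the highest at 11.5 RPM in the anti-miR library and 4.93 RPM in the control. The most abundant, the synthase gene Hmgcs1, had a log2 ratio of 0.04.

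Transcripts of farnesylated proteins had a median log2 ratio of 0.06 over the 19 of 24 measured. Of these 19, 3 were called higher (15.8%) and 1 lower (5.26%), beside 11.0% and 8.67% of all genes. Hras stood at 1.43-fold of control, short of the rule. Rnd2, a small GTPase, was higher at 10.1 RPM in the anti-miR library and 4.68 RPM in the control. Cenpf, a kinetochore protein that is also a mitotic gene, had 31.3 RPM in the anti-miR library and 14.7 RPM in the control. Ptp4a1, a prenylated phosphatase, had 33 reads in the anti-miR library and 2 in the control, a ratio of 17.9 (4.57 to 154). Rasd1 was lowest at a log2 ratio of −0.86, and the abundant Lmna and Rnd3 were both at 0.06.

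The mitotic genes listed for comparison had a median log2 ratio of 0.60 over 11 genes, with 6 higher and 1 lower (all genes, 11.0% and 8.67%), from Racgap1 at 1.67 down to Bub1 at −0.59. Their most abundant members were Mki67 at 0.13 and Top2a at 0.63. Whether cycling cells bear on the enzyme values was not tested.

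Geranylgeranylated CAAX proteins had a median of 0.03 over the 19 of 21 measured. Of these 19, 1 was called higher (5.26%) and 1 lower (5.26%), beside 11.0% and 8.67% of all genes. Gng5, a G protein gamma subunit, was higher at 12.6 RPM in the anti-miR library and 7.80 RPM in the control, and Rala, a Ras-like GTPase, was lower at 33.4 RPM against 51.1 RPM in the control. The abundant Rhob and Rhoa had log2 ratios of −0.13 and 0.21. The 45 Rab GTPase genes above 1 RPM had a median of −0.03. Of these 45, 4 were called higher (8.89%) and 5 lower (11.1%), near the 11.0% and 8.67% of all genes. They were taken by symbol as the family that Rabggta and Rabggtb act on, and were not checked singly as clients. Rab5a was highest at 1.74, Rab40c lowest at −1.01, and the most abundant, Rab31 and Rab1a, were at −0.09 and −0.10. The median over all genes was 0.03.

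**Figure D5:**
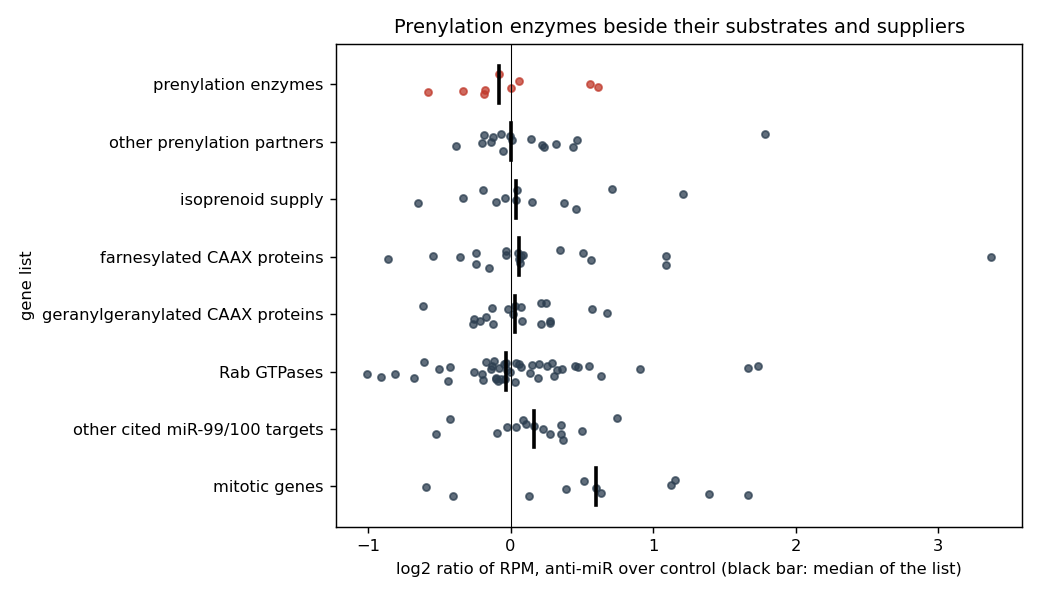
Log2 ratio of RPM (anti-miR over control) of each gene that averaged 1 RPM or more, by list, with the list's median as a black bar. The medians of the enzyme list (−0.08) and of its substrate lists lie near 0, and that of the mitotic genes lies at 0.60.

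Other partners of prenylated proteins had 1 of 16 higher (6.25%), Chml, and 0 lower, beside 11.0% and 8.67% of all genes. The list's median log2 ratio was 0.00. Arhgdia and Gdi2, which extract prenylated GTPases from membranes, were the most abundant at 954 and 473 RPM in the anti-miR library and 811 and 497 RPM in the control. Zdhhc9, a palmitoyltransferase of Ras proteins, was lowest at −0.38, and Pcyox1, the lyase that breaks down prenylcysteine, stood at 0.32.

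Other cited targets of miR-99/100 lay on both sides of the control. Of 17 listed beside Fntb, 15 lay above 1 RPM, with a median log2 ratio of 0.17. Of these 15, 1 was called higher (6.67%) and 0 lower, beside 11.0% and 8.67% of all genes. The kinase gene Plk1, which acts in mitosis, had the highest log2 ratio, 0.75, and Trib2, a pseudokinase, lowest at −0.52, above Fntb at −0.58. The remodelling ATPase Smarca5 had 59.9 RPM in the anti-miR library and 51.2 RPM in the control, and Mtor 74.6 and 76.1 RPM in that order. The abundant Akt1 and Tmem30a had log2 ratios of 0.28 and −0.10. This list was set down with earlier results of these data known, so its median is a description.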

How the data were processed

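The deposited table gives a read signal per gene for 2 libraries. Per the file headers, HOMER counted exonic reads of RefSeq transcripts (build rn4, opposite strand) without adjusting totals and kept 1 transcript per gene. CASAVA 1.8.2, STAR 2.2.0c and HOMER are named per the submitters' processing notes. The deposited signal nevertheless sums to 15423812 in the anti-miR and 15423813 in the control column, so they were scaled afterwards by a step that no source used here names. Low values were whole multiples of 1 read, worth 1.04 in the anti-miR and 0.962 in the control column (100% of values up to 400 reads within 0.005). Reads were recovered from these steps. Transcript lengths are those of the deposited table.

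Log2 ratios add 0.1 RPM to each level; ratios, their intervals and calls add nothing. A count of 0 allows up to 3 reads, or 0.202 RPM in the anti-miR library and 0.187 RPM in the control. With 1 library per group only counts, medians, exact intervals and a 1.5-fold rule were used (scipy 1.17.1). The exact binomial test, Benjamini-Hochberg adjusted at 0.05, compares libraries, not conditions. It called 6018 of 10365 genes. Scalings came from edgeR 4.0.16 and DESeq2 1.42.0. The code was tested on simulated data.

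The genes and lists were chosen with earlier results of these data known. Named were all 9 enzyme genes, the highest, lowest and 2 most abundant of each list, and genes of subunit pairs, except that some are not reported here. Others (Ptar1, Fdps, Ggps1, Hras, Rnd2, Cenpf, Pcyox1, Smarca5, Mtor, neighbours and cell type markers) were chosen after their values were seen, as were the balances of Chml with Chm, both escort genes with Rabggtb, both beta subunits with Fnta, and Icmt and Zmpste24 with Rce1. Protein alignments were not run.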

Additional observations from a re-analysis of the deposited data

How the results depend on the processing

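Scaling by TMM, the upper quartile or the median of ratios was tried. So were a pseudocount of 1 RPM, no floor, a floor of 10 RPM, a fold of 2 and the exact binomial test. The planned subunit balances were also taken from the deposited values plus 0.1 RPM in place of raw reads. Together these settings gave 106 alternative values. Of them, 100 stayed within the counting interval, the interval over a list's members or 1.5 times the count. This was largely fixed beforehand, because the 3 other scalings shifted all genes by nearly the same small step. The median log2 ratio over all genes was 0.027 by totals and 0.002 under TMM. Balances from deposited values rest on the same reads. Among called genes 0 changed direction, but by totals Rabggta was the only enzyme gene called. Under the 3 other scalings Chm and the median of other partners changed sign, both from 0.003 to about −0.02. The number of enzyme genes called lower was 1 (Fntb) under each of the 3 other scalings, against 0 with scaling by totals, because its ratio lies at the threshold. Over all genes, 968, 979 and 967 of 10366 were lower under TMM, the upper quartile and the median of ratios, in that order. With a fold of 2 the number called higher was 0, beside 518 of 10365 genes. The exact binomial test placed 2 higher and 4 lower, beside 31.7% and 26.4% of all genes. The log2 ratio of Fntb ranged from −0.61 to −0.56, of Pggt1b from 0.53 to 0.56 and of Rabggta from 0.59 to 0.62, while Chm ranged from −0.02 to 0.00. No paired analysis was possible because each group is 1 library without a replicate number. Depth limits the values of Chml, Ptp4a1 and other genes under about 10 RPM most.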
